A study of Mus musculus with 12 samples.

Results

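The genes described here are 10 whose RNA differed in the same direction between FAN1KO and wild-type kidneys in saline-treated and in cisplatin-treated mice: Trim12a, Pttg1, Apoa2, Cfap126, Gas5 and 2610507I01Rik, which were higher in FAN1KO kidneys, and Pm20d1, Sec14l3, Elobl and AA465934, which were lower. They are 10 of the 27179 genes in the table of TPM (transcript abundance normalised for gene length and library size), all 10 are among the 14972 tested, and all 10 are among 71 genes called in the same direction in both genotype comparisons. Because they were picked from these libraries for that difference, every genotype difference of theirs is given as a description with no test. The libraries came from whole kidneys of 12 mice, with 3 in every combination of genotype (wild-type or FAN1KO) and treatment (saline or cisplatin). The FAN1KO genotype is written {Gamma}GT1-Cre;Fan1-/- in the labels, that is, a deletion driven by the Ggt1 promoter in proximal tubule cells, so the other cells of a FAN1KO kidney keep the gene. All mice were 8 to 12 weeks old, the strain background of both genotypes is given as Mixed, and the study's methods state at least 5 generations of backcrossing to a 129Sv-Elite background. Cisplatin was given at 2 mg/kg each week by intraperitoneal injection for 5 weeks, and the controls received saline. Fewer cells of a type and less RNA per cell cannot be told apart in RNA of a whole kidney.

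FAN1 is a nuclease that takes part in the repair of DNA crosslinks, the lesion that cisplatin makes, and its loss in humans is known for karyomegalic interstitial nephritis. The 10 genes belong to no single pathway. Trim12a encodes a member of the TRIM family of ubiquitin ligases, from a cluster that includes the antiviral factor Trim5. Pttg1 encodes securin, which holds the protease separase inactive until chromosomes separate. Apoa2 encodes an apolipoprotein of high-density lipoprotein, best known from liver, and Cfap126 a protein of motile cilia. Pm20d1 encodes a secreted enzyme that joins and splits fatty acids and amino acids, Sec14l3 a lipid-binding protein, and Elobl a protein like elongin B, a subunit of cullin ubiquitin ligases. Gas5 is a long noncoding RNA whose introns hold small nucleolar RNAs, and AA465934 and 2610507I01Rik are noncoding RNAs for which no role is given here.

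The 10 genes lay on 3 chromosomes, 4 on chromosome 1, 1 on chromosome 7 and 5 on chromosome 11 (RefSeq, GRCm38.p6, the assembly that mm10 in the labels also names). On chromosome 1 these were Pm20d1 (chr1:131797385-131821472), Gas5 (chr1:161034601-161038539), Cfap126 (chr1:171113912-171126956) and Apoa2 (chr1:171221564-171226379), all on the plus strand. On chromosome 7 it was Trim12a (chr7:104299893-104315558, minus strand), which is 39.9 Mb from Fan1 (chr7:64345385-64374128). On chromosome 11 these were Sec14l3 (chr11:4064853-4078990) and AA465934 (chr11:83291699-83294637) on the plus strand, and Pttg1 (chr11:43420244-43427463), 2610507I01Rik (chr11:59197793-59202431) and Elobl (chr11:88964658-88966931) on the minus strand. The whole set of 71 genes from which the 10 came was spread more widely, with 6 of 804 genes tested on chromosome 1, 8 of 1109 on chromosome 7 and 11 of 1186 on chromosome 11, and its highest shares were 1.06% on chromosome 13, 0.927% on chromosome 11 and 0.910% on chromosome 5.

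Start regions are shown for the gene with the largest rise (Trim12a), the gene at 0 in FAN1KO kidneys (Elobl), the gene with the largest fall among the others (AA465934) and the neighbouring pair Cfap126 and Apoa2. Each window holds 250 bases before and 20 bases after a RefSeq transcript start, and 9 of the 10 genes matched the promoter table. Letters were searched on either strand, and capitals mark the matches. The box of promoters known by its letters CCAAT was one motif, and the TATA box was searched as TATAAA. The interferon response element was searched as GAAA repeated after 2 free bases, the half-site bound by RFX factors was searched as GTTGCC, and the cell cycle homology region was searched as TTTGAA. Of the 32851 promoter windows of this length in the RefSeq table, 35.4% held the CCAAT box, 12.9% the TATA box, 3.21% the interferon response element, 11.3% the RFX half-site and 16.8% the cell cycle homology region. Matches do not overlap each other in the windows shown.

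Trim12a, GRCm38.p6 chr7:104315476-104315745, minus strand: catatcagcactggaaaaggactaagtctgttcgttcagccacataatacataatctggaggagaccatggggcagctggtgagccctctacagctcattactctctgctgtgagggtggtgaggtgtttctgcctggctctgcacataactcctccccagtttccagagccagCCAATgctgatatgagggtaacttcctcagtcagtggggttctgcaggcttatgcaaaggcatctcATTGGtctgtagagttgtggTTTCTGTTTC

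Elobl, GRCm38.p6 chr11:88966912-88967181, minus strand: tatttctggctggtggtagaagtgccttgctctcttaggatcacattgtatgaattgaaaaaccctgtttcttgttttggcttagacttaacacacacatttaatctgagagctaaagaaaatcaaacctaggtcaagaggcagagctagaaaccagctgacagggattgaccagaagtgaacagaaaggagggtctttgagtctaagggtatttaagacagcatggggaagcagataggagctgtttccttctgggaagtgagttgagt

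AA465934, GRCm38.p6 chr11:83291449-83291718, plus strand: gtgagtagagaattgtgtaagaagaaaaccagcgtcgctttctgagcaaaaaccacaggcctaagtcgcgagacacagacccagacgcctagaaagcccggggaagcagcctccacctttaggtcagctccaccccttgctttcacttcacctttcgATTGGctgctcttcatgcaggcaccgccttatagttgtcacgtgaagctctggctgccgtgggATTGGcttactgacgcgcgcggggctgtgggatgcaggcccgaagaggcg

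Cfap126, GRCm38.p6 chr1:171113736-171114005, plus strand: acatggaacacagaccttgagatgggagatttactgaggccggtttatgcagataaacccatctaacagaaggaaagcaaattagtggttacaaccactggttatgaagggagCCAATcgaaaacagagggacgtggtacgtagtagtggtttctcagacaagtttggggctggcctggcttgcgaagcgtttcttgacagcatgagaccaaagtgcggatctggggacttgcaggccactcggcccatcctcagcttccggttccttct

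Apoa2, GRCm38.p6 chr1:171224804-171225073, plus strand, the inner of its RefSeq starts: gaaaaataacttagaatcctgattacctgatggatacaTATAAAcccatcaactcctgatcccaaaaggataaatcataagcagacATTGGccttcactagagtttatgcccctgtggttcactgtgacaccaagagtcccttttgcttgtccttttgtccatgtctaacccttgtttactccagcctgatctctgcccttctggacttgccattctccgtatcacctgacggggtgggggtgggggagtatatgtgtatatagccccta

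The Trim12a window held the interferon response letters 11 bases after the start, on the strand opposite to the transcript, and CCAAT boxes 76 and 10 bases before it. AA465934 held CCAAT boxes 93 and 30 bases before its start, Cfap126 137 bases and Apoa2 164 bases before theirs, and Apoa2 also held a TATA box 212 bases before. The CCAAT box was thus found in windows of 4 of the genes (Trim12a, Apoa2, Cfap126 and AA465934), which includes genes that were higher and 1 that was lower in FAN1KO kidneys. The Elobl window held none of the letters searched, nor did those of Pttg1, 2610507I01Rik and Sec14l3. Of the windows not shown, those of Gas5 held an RFX half-site and a second start of Cfap126 the cell cycle homology region. The outer start of Apoa2, also not shown, had a CCAAT box 128 bases before it. A match is a description of the letters and not of a bound site.

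Before these genes, Fan1 was read in every library. Fan1 had 3.80, 3.35 and 1.98 TPM in wild-type saline kidneys, 1.17, 1.54 and 2.28 TPM in FAN1KO saline kidneys, 2.33, 3.57 and 3.32 TPM in wild-type cisplatin kidneys and 2.72, 3.51 and 1.55 TPM in FAN1KO cisplatin kidneys. The genotypes overlapped under both treatments, so whole-kidney Fan1 RNA did not separate the labels. Ggt1, whose promoter drives the Cre, had 819 to 1459 TPM in wild-type saline, 650 to 1295 TPM in FAN1KO saline, 755 to 1484 TPM in wild-type cisplatin and 349 to 868 TPM in FAN1KO cisplatin kidneys. Libraries held 37201997 to 82947287 reads in genes, as recovered from the steps in the TPM, and 1 read in a gene of 1 kilobase was worth 0.0200 to 0.0479 TPM. Y-linked genes were expressed in 1 library of each group (FAN1KO cisplatin 3, FAN1KO saline 1, wild-type cisplatin 1 and wild-type saline 3) and near 0 in the others. Markers of proximal tubule were abundant in all libraries (8 of 8 tested), with a summed level of 5030 to 5821 TPM in wild-type saline, 4845 to 7076 TPM in FAN1KO saline, 4279 to 6176 TPM in wild-type cisplatin and 1759 to 3430 TPM in FAN1KO cisplatin kidneys. By limma, 0.768% of genes tested were called between genotypes under saline (0.341% higher and 0.427% lower in FAN1KO) and 23.9% under cisplatin (19.6% higher and 4.37% lower). In both comparisons 0.274% were called higher and 0.2% lower. The 3 mice of each genotype did not overlap the other 3 under either treatment in any of the 10 genes, against 2.52% (higher in FAN1KO) and 1.58% (lower) of all genes tested. These shares only set the scale, because this separation is what the genes were picked for.

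**Figure D1:**
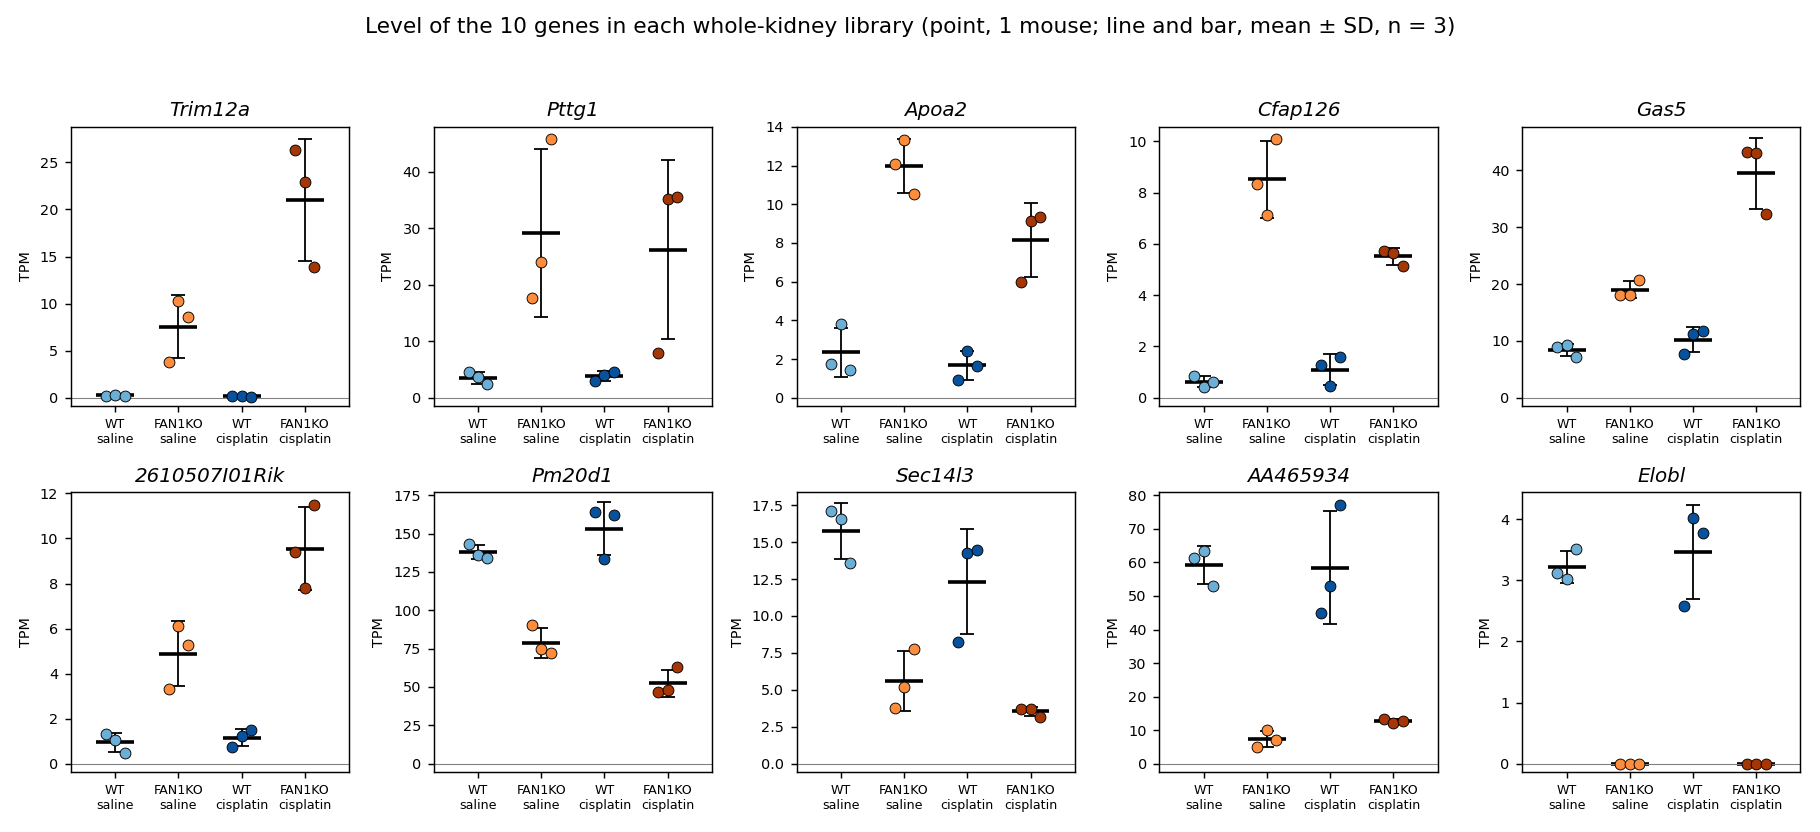
Level of each of the 10 genes in TPM (vertical axes, linear, each with its own range) in every library of the 4 groups, with points for single mice and lines and bars for the mean ± SD (n = 3). In the first 6 panels all FAN1KO points lie above the wild-type points of the same treatment, in the last 4 they lie below, and Elobl is at 0 TPM in all 6 FAN1KO libraries.

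Trim12a (76681) was close to absent from wild-type kidneys and present in every FAN1KO kidney. It had 0.184, 0.333 and 0.223 TPM in wild-type saline, 3.82, 10.3 and 8.57 in FAN1KO saline, 0.213, 0.178 and 0.0314 in wild-type cisplatin and 26.3, 22.9 and 13.8 in FAN1KO cisplatin kidneys. The wild-type values rest on 1 to 17 reads per library and the FAN1KO values on 170 to 839, so the ratio of means, 30.6 under saline and 149 under cisplatin, is imprecise in its denominator. On the log2(TPM + 1) scale the difference was 2.69 under saline and 4.23 under cisplatin (SE 0.31 for each). The FAN1KO cisplatin kidneys lay above the FAN1KO saline kidneys without overlap, whereas the wild-type kidneys of the 2 treatments overlapped.

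Reads of Trim12a can be shared with its relatives in the cluster. Of all 50-base stretches of its longest spliced transcript, 23.5% were also found in Trim12c or Trim5, and of all 150-base stretches, the length of a read, 1.66% were found in Trim5. Trim12c, 23.2 kb away, had 10.3, 13.7 and 8.15 TPM in wild-type saline, 3.27, 8.46 and 6.50 TPM in FAN1KO saline, 8.97, 14.5 and 14.3 TPM in wild-type cisplatin and 18.1, 15.2 and 9.99 TPM in FAN1KO cisplatin kidneys. Unlike for Trim12a, the genotypes overlapped under both treatments (limma, log2 difference −0.78 and 0.17, adjusted p 0.535 and 0.723). The nearest tested genes on either side, Trim5 and Trim34b, and Gm15133, which overlaps Trim12a, were not called under saline (log2 difference 0.62, −0.85 and 0.49, limma adjusted p 0.538, 0.224 and 0.619). Under cisplatin Trim5 (1.60, limma adjusted p 0.00273) and Gm15133 (1.46, limma adjusted p 0.00217) were higher in FAN1KO kidneys and Trim34b lower (−0.88, limma adjusted p 0.0246). Trim5, Gm15133 and Trim12a share sequence or position, and how the authors' counting divided reads between them is not given in the sources used here. Of the 11 listed TRIM genes of the cluster other than Trim12a, 8 were tested, with 0 called under saline and 2 higher (Trim5 and Trim34a) and 1 lower (Trim34b) under cisplatin. Their median log2 difference was −0.24 under saline and 0.23 under cisplatin, where all genes tested had −0.037 and 0.24. Like Trim12a, Trim34a was higher in FAN1KO kidneys without overlap under both treatments (log2 difference 1.27 and 1.98, limma adjusted p 0.105 and 0.00168). Trim34b was lower without overlap under both. Without overlap in both comparisons lay 2.52% (higher) and 1.58% (lower) of all genes tested. Under cisplatin 19.6% of all genes were called higher and 4.37% lower.

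Elobl (217066) had no read in any FAN1KO library. It had 3.12, 3.02 and 3.52 TPM in wild-type saline and 2.59, 4.02 and 3.77 in wild-type cisplatin kidneys, on 58 to 143 and 64 to 72 reads, and 0 in all 6 FAN1KO libraries. Against the 3 reads per library that a count of 0 allows (counting error only), it was at least 22.5-fold lower under saline and at least 20.4-fold lower under cisplatin. Of all genes tested, Elobl and the immunoglobulin segment Ighv1-67 were at 0 in all 6 FAN1KO libraries and above 0 in all 6 wild-type libraries, and no gene had the opposite pattern. A 0 in at least 1 of the 12 libraries, a weaker condition than this pattern, was found for 356 of the 14972 genes tested.

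Elobl shares 12.5% of the 50-base stretches of its transcript with 2210409E12Rik or Coil and none of its 150-base stretches with another gene. Elob, which encodes elongin B itself, was expressed in all 12 libraries, at 234, 312 and 274 TPM in wild-type saline, 266, 316 and 322 TPM in FAN1KO saline, 220, 327 and 321 TPM in wild-type cisplatin and 470, 483 and 448 TPM in FAN1KO cisplatin kidneys. It was not called under saline (log2 difference 0.14, limma adjusted p 1.00) and was higher in FAN1KO kidneys under cisplatin (0.71, limma adjusted p 0.0119). The genes next to Elobl, Scpep1 and Coil, were not called under saline (limma adjusted p 0.305 and 1.00) or under cisplatin (0.683 and 0.0763). All 12 elongin and cullin ligase genes listed beside Elobl were tested. Of these 0 were called under saline and 3 were higher under cisplatin (Elob, Eloc and Socs3), beside 19.6% of all genes. Their median log2 differences were −0.01 and 0.23, against −0.037 and 0.24 over all genes.

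**Figure D2:**
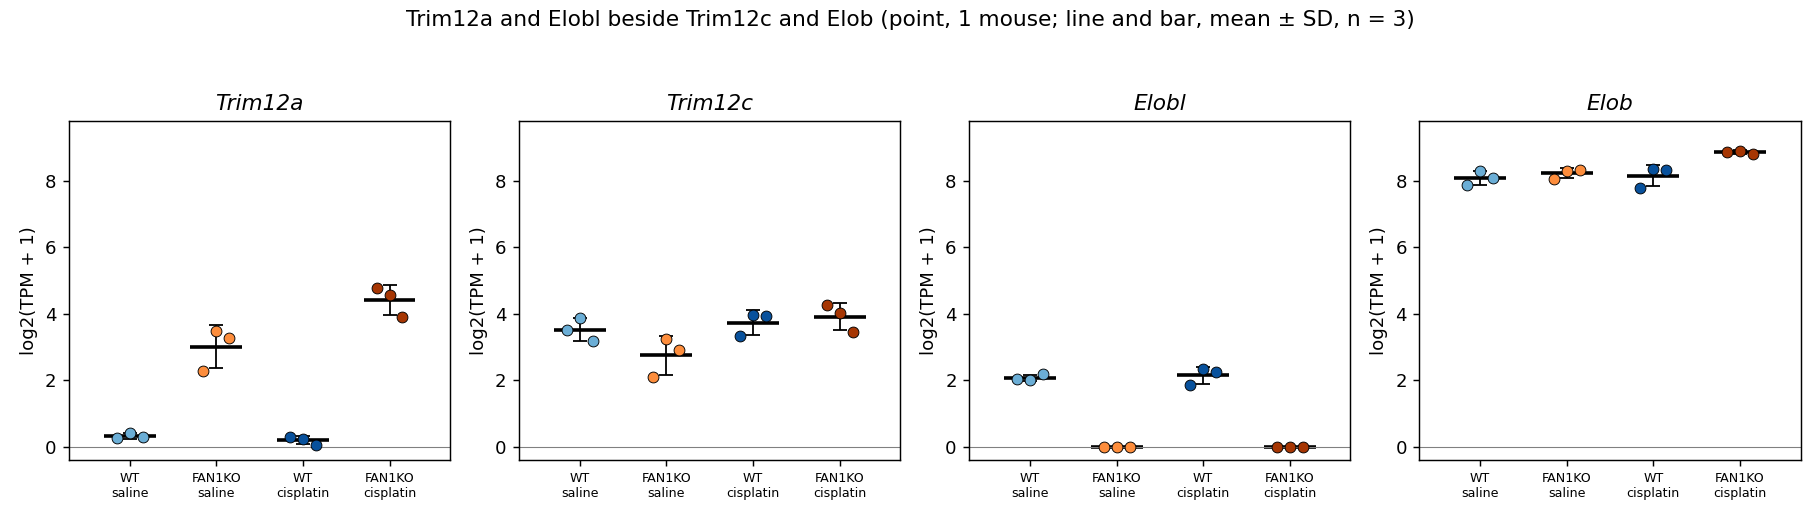
Level of Trim12a and Elobl beside their relatives Trim12c and Elob, as log2(TPM + 1) on the same vertical axis, in every library (points, single mice) with the mean ± SD (n = 3). Trim12a and Elobl separate by genotype under both treatments, while the genotypes overlap for Trim12c under both treatments and for Elob under saline.

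Pttg1 (30939), which encodes securin, was several-fold higher in FAN1KO kidneys and had the largest SE of the 10 on the log2(TPM + 1) scale. It had 4.53, 3.60 and 2.46 TPM in wild-type saline, 17.6, 24.0 and 45.8 in FAN1KO saline, 2.93, 4.09 and 4.57 in wild-type cisplatin and 7.95, 35.2 and 35.5 in FAN1KO cisplatin kidneys. The ratio of means was 8.25 under saline and 6.78 under cisplatin, and the log2 difference 2.65 and 2.24 (SE 0.51 for each). FAN1KO cisplatin replicate 1 stood apart at 7.95 TPM, and its distance to the highest wild-type cisplatin kidney was small beside the spread of its own group. Separase itself (Espl1) was below the filter on low values. The 12 tested genes listed beside Pttg1 are cohesin genes and their regulators. Of these 0 were called under saline, with a median of 0.10. Under cisplatin 3 were higher (Esco1, Esco2 and Cdca5), beside 19.6% of all genes, with a median of 0.33 against 0.24. Genes of the mitotic cell cycle gave 0 of 14 under saline (median 0.10) and 13 of 14 higher under cisplatin (median 1.11), with the lowest adjusted p for Mad2l1 (1.01, limma adjusted p 0.00174) and Cdk1 (1.48, limma adjusted p 0.00254). The summed level of these mitotic genes was 14.1 to 36.2 TPM in wild-type saline, 21.2 to 28.2 TPM in FAN1KO saline, 13.7 to 53.0 TPM in wild-type cisplatin and 69.6 to 98.3 TPM in FAN1KO cisplatin kidneys. This level overlapped between genotypes in the saline kidneys and did not in the cisplatin kidneys.

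Apoa2 (11807) and Cfap126 (75472) are 94.6 kb apart on chromosome 1 and were both higher in FAN1KO kidneys. Apoa2 had 1.74, 3.82 and 1.46 TPM in wild-type saline, 12.1, 13.3 and 10.5 TPM in FAN1KO saline, 0.908, 2.44 and 1.65 TPM in wild-type cisplatin and 5.96, 9.15 and 9.35 TPM in FAN1KO cisplatin kidneys. Cfap126 had 0.847, 0.409 and 0.598 TPM in wild-type saline, 8.35, 7.13 and 10.1 TPM in FAN1KO saline, 1.29, 0.438 and 1.57 TPM in wild-type cisplatin and 5.73, 5.64 and 5.15 TPM in FAN1KO cisplatin kidneys. The ratio of means for Apoa2 was 5.13 under saline and 4.90 under cisplatin (log2 differences 2.02 and 1.80, SE 0.29), and for Cfap126 13.8 and 5.01 (log2 differences 2.55 and 1.67, SE 0.22). In both genes the FAN1KO cisplatin kidneys lay below the FAN1KO saline kidneys without overlap.

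Sdhc and Pcp4l1, tested neighbours of Cfap126 and Apoa2 that lie between them, were not called under saline (limma, log2 difference 0.0065 and 0.37, both adjusted p 1.00). Under cisplatin Sdhc was lower in FAN1KO kidneys (−0.38, limma adjusted p 0.0158) and Pcp4l1 was not called (0.74, limma adjusted p 0.196). Tomm40l, which overlaps Apoa2, was not called under either treatment (0.15 and 0.24, limma adjusted p 1.00 and 0.280).

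Apoa2 is a liver gene, so markers of hepatocytes were read beside it. Their summed level was 233 to 2036 TPM in wild-type saline and 160 to 2550 TPM in FAN1KO saline kidneys. Under cisplatin it was 153 to 2350 TPM in wild-type and 108 to 434 TPM in FAN1KO kidneys, and the sums overlapped between genotypes. Cyp2e1 was the largest part (group means 663, 748, 798 and 168 TPM) and spread from 101 to 2109 TPM within wild-type cisplatin kidneys. Alb had means of only 7.50, 11.7, 8.76 and 2.26 TPM, so the overlap of the sums does not describe every marker. Of 5 tested 0 were called under saline and 1 (Fgb) was higher under cisplatin, beside 19.6% of all genes. Of 13 tested genes of plasma apolipoproteins and high-density lipoprotein, 0 were called under saline (median −0.14). Under cisplatin 3 of these were higher (Apoa4, Apoc2 and Abca1) and Apom was lower, beside 19.6% and 4.37% of all genes. Their median there was 0.72, against 0.24 over all genes. For Cfap126 the markers of multiciliated cells were read in the same way. These were near the lower limit in saline kidneys of both genotypes (summed level 1.35 to 1.44 TPM in wild-type and 1.18 to 2.16 TPM in FAN1KO) and 10.3 to 12.1 TPM in FAN1KO cisplatin kidneys, against 1.92 to 3.52 TPM in wild-type (1 of 2 tested called higher). Of 7 tested genes of the motile cilium and axoneme, 0 were called under saline (median −0.0047). Under cisplatin 3 of these were higher (median 0.79), beside 19.6% of all genes and a median of 0.24. Foxj1, the main transcription factor of motile cilia, was among the 3 (1.82, limma adjusted p 0.000182). Cfap126 was lower in FAN1KO kidneys given cisplatin than in those given saline, whereas the summed level of the multiciliated markers was higher there. Foxj1 made up most of that rise (means of 0.321 TPM with saline and 7.63 TPM with cisplatin). Ccdc39 and Tekt1 rose too, and Dnah5 did not (0.101 and 0.0824 TPM).

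Gas5 (14455) was higher in FAN1KO kidneys under saline and higher again under cisplatin. It had 8.87, 9.21 and 7.10 TPM in wild-type saline, 18.1, 18.1 and 20.8 in FAN1KO saline, 7.70, 11.2 and 11.8 in wild-type cisplatin and 43.3, 43.0 and 32.3 in FAN1KO cisplatin kidneys. The order of the groups was thus wild-type saline and wild-type cisplatin, which overlapped, then FAN1KO saline and then FAN1KO cisplatin, each clear of the group below. The ratio of means was 2.26 under saline and 3.87 under cisplatin (log2 differences 1.10 and 1.86, SE 0.18). The locus overlaps 10 other annotated genes, 8 of them small nucleolar RNA genes in its introns. Of those 8 only Snord47 is in the table, on 1 to 14 reads per library, and it was not called (limma adjusted p 1.00 and 0.235). Zbtb37, which also overlaps the locus, was not called under saline (limma adjusted p 0.553) or cisplatin (limma adjusted p 0.249). Other hosts of small nucleolar RNAs, 16 tested, gave 1 higher under saline (Snhg9, 1.50, limma adjusted p 0.0135) and 8 higher under cisplatin, with medians of −0.15 and 0.70. Of all genes tested 0.341% were called higher under saline and 19.6% under cisplatin, with medians of −0.037 and 0.24. The summed level of the 16 hosts was 239 to 309 TPM in wild-type saline, 202 to 283 TPM in FAN1KO saline, 270 to 378 TPM in wild-type cisplatin and 464 to 691 TPM in FAN1KO cisplatin kidneys. This sum overlapped between genotypes in the saline kidneys, where Gas5 did not.

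2610507I01Rik (72203), a noncoding RNA, followed the same order of groups as Gas5. It had 1.31, 1.06 and 0.495 TPM in wild-type saline, 3.30, 6.10 and 5.26 TPM in FAN1KO saline, 0.743, 1.22 and 1.48 TPM in wild-type cisplatin and 9.38, 7.79 and 11.5 TPM in FAN1KO cisplatin kidneys. The ratio of means was 5.10 under saline and 8.33 under cisplatin (log2 differences 1.58 and 2.30, SE 0.25). Its neighbours Guk1 and Mrpl55 were not called under saline (limma adjusted p 0.973 and 1.00), and under cisplatin Guk1 was higher (0.46, limma adjusted p 0.0151).

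Pm20d1 (212933) had the highest level of the 10 and was lower in FAN1KO kidneys. It had 143, 136 and 134 TPM in wild-type saline, 90.1, 74.7 and 72.0 in FAN1KO saline, 164, 133 and 162 in wild-type cisplatin and 46.7, 47.8 and 62.7 in FAN1KO cisplatin kidneys, on 3455 to 23836 reads. The mean fell to 0.572 of wild-type under saline and to 0.342 under cisplatin (log2 differences −0.80 and −1.54, SE 0.14), and the FAN1KO kidneys of the 2 treatments did not overlap. Of 10 genes of M20 peptidases and N-acyl amino acid enzymes, 0 were called under saline. Under cisplatin Acy1 (−1.90, limma adjusted p 0.00605) and Aspa (−0.55, limma adjusted p 0.0395) were lower and Asah1 higher (0.54, limma adjusted p 0.0103). Of all genes tested 4.37% were called lower and 19.6% higher there. Acy1, which splits N-acetylated amino acids, had a log2 difference of −1.45 under saline (limma adjusted p 0.157). The markers of proximal tubule, the cell type in which Fan1 was deleted, had a median log2 difference of −0.03 under saline with 0 of 8 called. Under cisplatin their median was −1.03 with 5 of 8 lower, beside 4.37% of all genes. Over all genes tested the medians were −0.037 and 0.24. The summed level of the 8 markers overlapped between genotypes under saline. Slc5a2 (0.50) and Slc13a3 (0.44) were higher without overlap in FAN1KO saline kidneys but were not called (limma adjusted p 0.457 and 0.514). Slc34a1 (0.27) also lay above 0 there. Slc5a12 (−0.52), Ggt1 (−0.24), Cubn (−0.10), Lrp2 (−0.055) and Slc22a6 (−0.0087) lay below 0. The part of these markers in the differences of Pm20d1 was not tested.

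Sec14l3 (380683) was lower in FAN1KO kidneys by a similar amount under both treatments. It had 17.1, 16.5 and 13.6 TPM in wild-type saline, 3.76, 5.19 and 7.78 TPM in FAN1KO saline, 8.21, 14.3 and 14.5 TPM in wild-type cisplatin and 3.69, 3.73 and 3.18 TPM in FAN1KO cisplatin kidneys. The wild-type mean was 2.82 times the FAN1KO mean under saline and 3.49 times under cisplatin (log2 differences −1.39 and −1.52, SE 0.25). The lowest wild-type cisplatin kidney, at 8.21 TPM, lay close to the highest FAN1KO saline kidney, at 7.78 TPM. Of 4 tested relatives with a SEC14-like lipid-binding domain, 0 were called under saline. Under cisplatin only Sec14l2 was called, higher (0.88, limma adjusted p 0.0381), beside 19.6% of all genes. Gal3st1 and Mtfp1, its tested neighbours, were not called under saline (both limma adjusted p 1.00), and Mtfp1 was lower under cisplatin (−0.71, limma adjusted p 0.0134).

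AA465934 (613254), a noncoding RNA, had the largest decrease of the genes that kept reads in FAN1KO kidneys. It had 61.4, 63.3 and 52.9 TPM in wild-type saline, 5.11, 9.90 and 7.20 in FAN1KO saline, 44.9, 53.0 and 77.2 in wild-type cisplatin and 13.3, 12.0 and 12.8 in FAN1KO cisplatin kidneys. The wild-type mean was 8.00 times the FAN1KO mean under saline and 4.60 times under cisplatin (log2 differences −2.88 and −2.08, SE 0.22). In TPM the FAN1KO kidneys given cisplatin lay above those given saline without overlap, as did 47.4% of all genes tested. The median-ratio size factors were 1.35, 1.22 and 1.09 in FAN1KO cisplatin and 0.767, 0.989 and 0.952 in FAN1KO saline libraries. With that scaling the rise is smaller, so its size and the separation depend on the scale. AI450353, which overlaps AA465934, did not pass the test under either treatment (−0.47 and −0.53, limma adjusted p 0.714 and 0.142). The small nucleolar RNA gene Snord7 overlaps the locus as well.

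**Figure D3:**
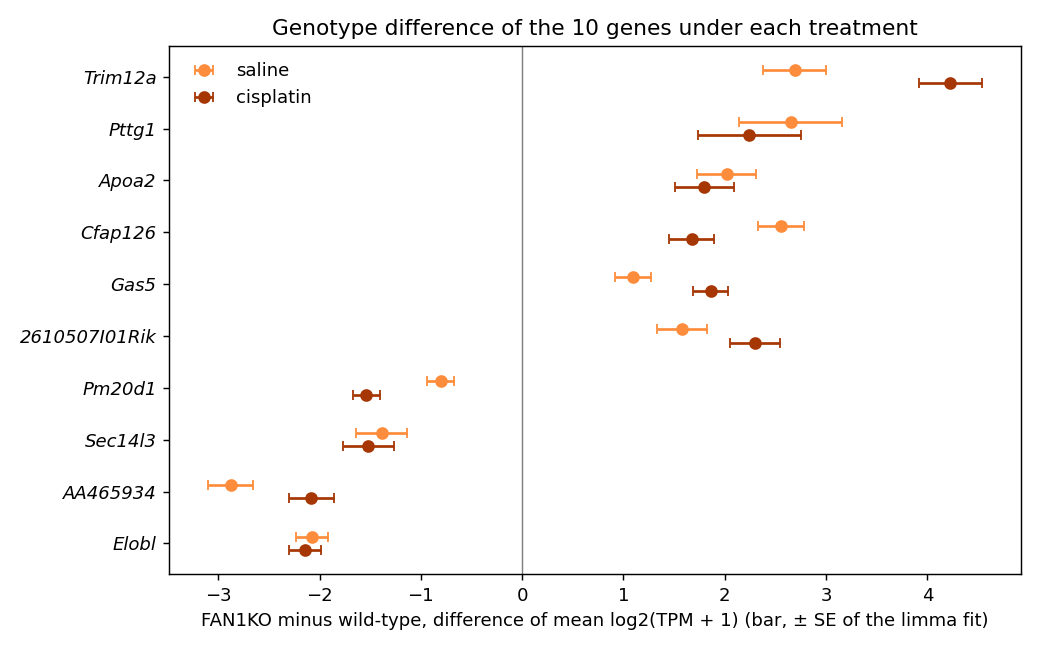
Difference of mean log2(TPM + 1) between FAN1KO and wild-type kidneys (horizontal axis) for each of the 10 genes under saline and under cisplatin, with bars for ± SE of the limma fit (3 mice against 3). The first 6 genes lie right of 0 and the last 4 left of 0 under both treatments, from −2.88 for AA465934 under saline to 4.23 for Trim12a under cisplatin.

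The question of whether the wider surroundings of the 10 genes differed too was answered with the 98 other genes tested within 250 kb of any of them. Under saline 0 of 98 were called, where 0.768% of all genes tested were, and the median log2 difference was 0.014 against −0.037 over all genes. Under cisplatin 28 were called, 28.6% beside 23.9% of all genes, with a median of 0.27 against 0.24. None of the 98 was called in both. On the log2(TPM + 1) scale 3 of the 98 differed by more than 1 under saline and 10 under cisplatin. Apoa2 and Cfap126 were the only 2 of the 10 genes within 250 kb of each other.

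**Figure D4:**
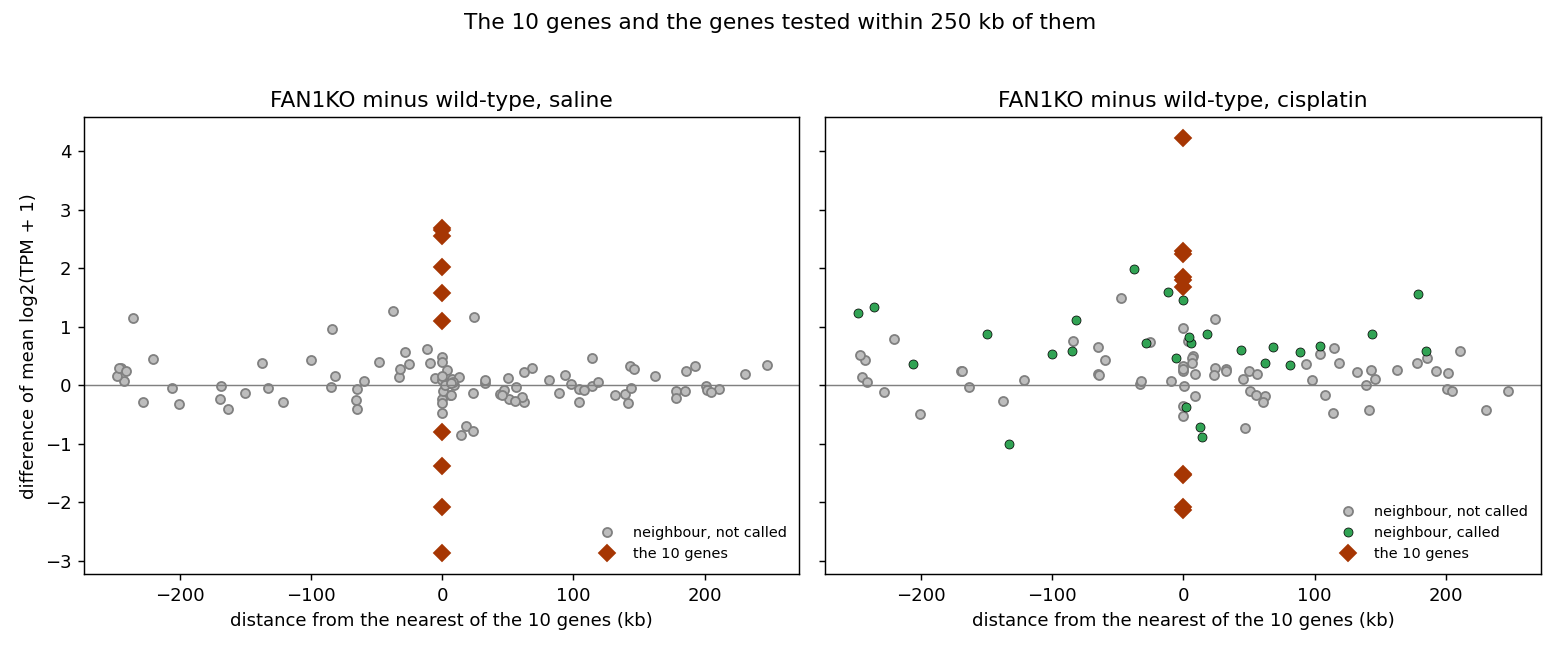
Difference of mean log2(TPM + 1) between FAN1KO and wild-type kidneys (vertical axis) against the distance in kb from the nearest of the 10 genes (horizontal axis, negative toward lower coordinates), under saline (left) and cisplatin (right). Diamonds at 0 kb are the 10 genes and circles the 98 other genes tested within 250 kb, of which none was called (limma, adjusted p below 0.05) under saline and 28 were called under cisplatin.

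The effect of cisplatin averaged over the genotypes shares with the choice of the genes only the estimate of the spread, and was tested. Of the 10 genes 1 was called, Gas5, which was higher after cisplatin by 0.63 on the log2(TPM + 1) scale (SE 0.12, limma adjusted p 0.00598). Over all genes tested 28.9% were called (25.8% higher and 3.12% lower) and the median was 0.23, while the 10 genes had a median of −0.029 with 5 of 10 above 0. At an unadjusted p under 0.05 there were 5 of 10, beside 42.7% of all genes. Trim12a (0.64, SE 0.22, limma adjusted p 0.0505) and 2610507I01Rik (0.50, SE 0.18, limma adjusted p 0.0533) lay just outside the threshold. The other 7 had limma adjusted p from 0.0905 (Sec14l3, −0.43) to 0.870 (Pttg1, −0.091). With libraries scaled by median ratios in place of TPM, the median over all genes was −0.0021 in place of 0.23, Gas5 was still higher (0.37, limma adjusted p 0.0124), and Apoa2 (−0.64, limma adjusted p 0.0486) and Sec14l3 (−0.65, limma adjusted p 0.00617) were called lower.

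Within genotypes the cisplatin difference is given as a description, since whether it differs between genotypes is fixed in part by the choice of the genes. In wild-type kidneys the saline and cisplatin values overlapped in all 10 genes, where 5.2% of all genes lay higher and 1.08% lower without overlap. In FAN1KO kidneys 4 genes lay higher in TPM after cisplatin without overlap (Trim12a, Gas5, AA465934 and 2610507I01Rik). Another 4 lay lower (Apoa2, Cfap126, Pm20d1 and Sec14l3), beside 47.4% higher and 7.43% lower of all genes. In FAN1KO kidneys the log2 differences were 1.41 for Trim12a, 1.01 for Gas5, 0.86 for 2610507I01Rik and 0.74 for AA465934, and −0.59 for Pm20d1, −0.54 for Cfap126, −0.52 for Apoa2 and −0.49 for Sec14l3. In wild-type kidneys these 8 genes had log2 differences between −0.36 (Sec14l3) and 0.34 (Cfap126).

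**Figure D5:**
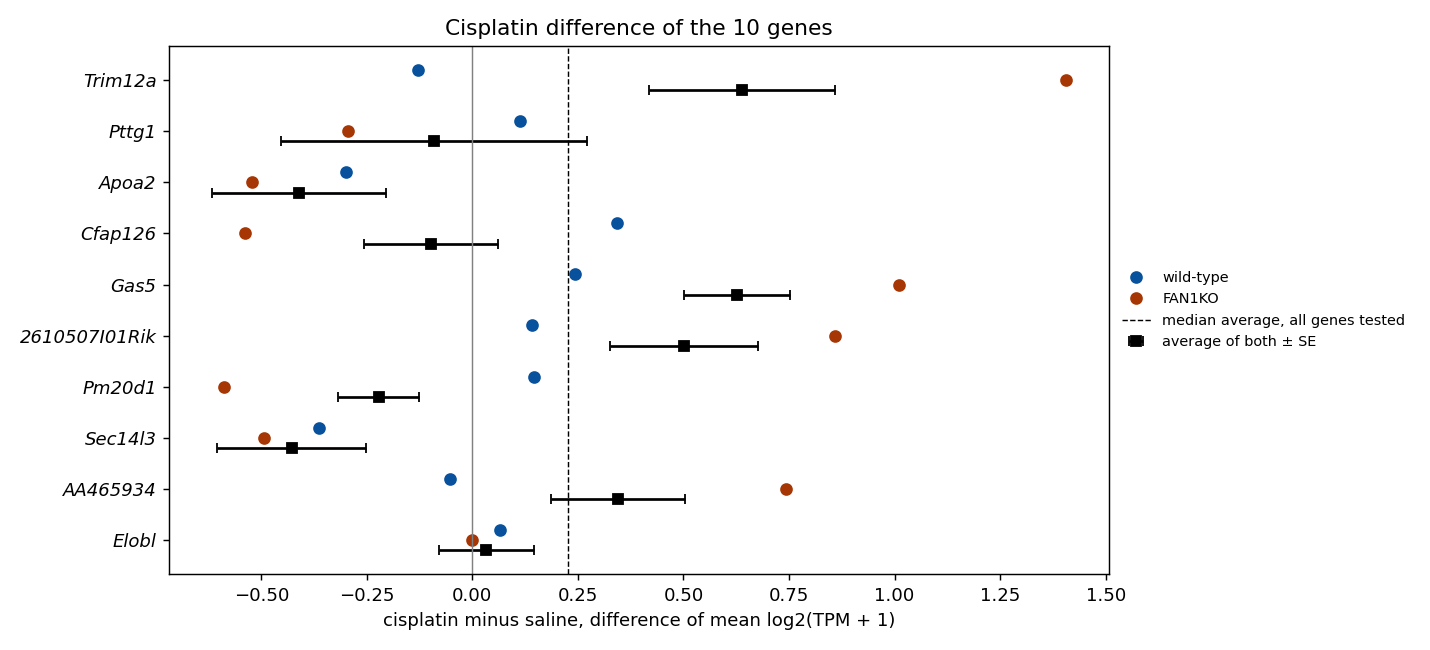
Difference of mean log2(TPM + 1) between cisplatin and saline kidneys (horizontal axis) for each of the 10 genes in wild-type mice, in FAN1KO mice and as the average of both with ± SE of the limma fit, with a dashed line at the median average of all genes tested (0.23). Only Gas5 passed the test of the average, and Trim12a has the widest gap between the genotypes, from −0.13 in wild-type to 1.41 in FAN1KO kidneys.

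Several marker lists had members called between genotypes under cisplatin, and under saline 0 genes of any marker list were called. Tubule injury markers had a summed level of 109 to 195 TPM in wild-type cisplatin and 1007 to 1480 TPM in FAN1KO cisplatin kidneys (4 of 4 higher). With saline the sums were 113 to 142 TPM in wild-type and 75.4 to 105 TPM in FAN1KO kidneys, without overlap (median log2 difference −0.74). That lower sum came mainly from Havcr1 (−2.37), which itself overlapped between genotypes, and Lcn2 was lower too (−1.40). Krt8 (−0.085) and Krt20 (0.13) differed little, and none of the 4 was called under saline. Erythroid markers were at 2318 to 6571 TPM in wild-type cisplatin and 6.56 to 73.3 TPM in FAN1KO cisplatin kidneys (4 of 4 lower). In saline kidneys they were at 1136 to 5340 TPM (wild-type) and 535 to 1467 TPM (FAN1KO). Collecting duct markers were higher in 2 of 6 and macrophage markers in 1 of 4 under cisplatin, beside 19.6% of all genes tested. Of the distal convoluted tubule markers 1 of 3 was lower there, beside 4.37% of all genes. Thick ascending limb, podocyte, endothelial, fibroblast and lymphocyte lists had none called. Adrenal markers were at 132 TPM in 1 wild-type saline library and at most 3.14 TPM in the cisplatin kidneys and 1.97 TPM in the FAN1KO saline kidneys. The part of these markers in the differences of the 10 genes under cisplatin was not tested.

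The genes whose levels tracked each of the 10 most closely over the 12 libraries are given by Pearson's r of log2(TPM + 1), as a description, since all 12 share the same genotype and treatment groups. The closest were Smim6 and Rplp0 for Trim12a beside an unnamed gene (100504344) with r of 0.982 to 0.983, Fgl1 for Pttg1 (0.931), Tmem245 for Apoa2 (0.963), C130046K22Rik for Cfap126 (0.953) and Tceanc2 for Gas5 (0.980). Mcm6, a subunit of the replicative helicase, was closest to 2610507I01Rik (0.979). Among the genes that were lower in FAN1KO kidneys the closest were Hsd3b2 for Pm20d1 (0.972), Coq5 for Sec14l3 (0.952), BC018473 for Elobl (0.991) and Hddc3 for AA465934 (0.980). C130046K22Rik, on chromosome 11, was among the 3 closest for Pttg1, Apoa2 and Cfap126. Within groups, where the genotype difference is removed, the deviations of the 10 genes from their group means had r between −0.80 (Trim12a with Pm20d1) and 0.81 (AA465934 with 2610507I01Rik), and Apoa2 and Cfap126, the neighbours, had −0.63.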

How the data were processed

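RNA of whole kidneys from 12 mice had been sequenced, and the mice were put into 4 groups of 3 by the genotype and treatment in their labels. Values were the TPM as the authors deposited them, 27179 genes by NCBI Gene number, in which each library summed to 1000000 (columns left out, 0). The labels name build mm10 and limma, and the aligner and annotation are not given in the sources used here. Gene names and positions came from RefSeq GRCm38.p6, in which 1904 of the numbers had no entry. Shared transcript stretches came from GENCODE transcripts.

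Reads were worked out from the TPM steps. For all 22557 genes above 0 they came out whole (tolerance 0.01 bases of implied length), and 361 of 401 small RNA genes set the length scale. Depth was 37201997 to 82947287 reads, intervals and floors cover counting error only, and p-values measure the spread between mice.

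Genes of at least 1 TPM in at least 3 libraries were tested (14972). limma 3.58.1 (R 4.3.3) fitted 4 group means to log2(TPM + 1) over all 12 libraries with a mean-variance trend and Benjamini-Hochberg adjustment at 0.05. Fold changes on this scale understate those of low genes. "Called" means an adjusted p below 0.05. The 10 genes, the gene lists and the tests were chosen with earlier results of these data known. The 10 genes were picked on both genotype comparisons, so only the cisplatin effect averaged over genotypes, which shares with those only the estimate of the spread, was tested for them. The other genes named were Fan1, Ggt1, Trim12c and Elob, the nearest and overlapping tested genes of each of the 10 and any tested within 250 kb and called in both comparisons, the 3 genes of highest r with each, and up to 4 genes called per list. Ighv1-67 was named after its values were seen. Some neighbouring genes are not reported here. Alternatives were a pseudocount of 0.1, no filter, median-ratio scaling, a Y-linked covariate, a replicate block, no trend, only the 6 libraries of a comparison, each library left out, and limma's voom on recovered reads, the last chosen after seeing the data. The fit was tested on simulated data. Tables and plots were made with pandas 2.3.3, matplotlib 3.10.9 and numpy 2.4.6 in Python 3.11.15.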

Additional observations from a re-analysis of the deposited data

How the results depend on the processing

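No genotype difference of any of the 10 genes changed sign in 21 settings. The genes were picked on these differences in the same libraries, so this is a description and no support for them. Under the alternatives the number of genes called for cisplatin averaged over genotypes went from 4329 to 2867 with median-ratio scaling (56.3% of them higher, against 89.2%) and 8190 with the Y-linked covariate. Between genotypes under saline it went from 115 to 72 without a filter, 421 with the Y-linked covariate and 27 with only the 6 libraries compared. Under cisplatin it went from 3585 to 7323 and 2175 with the last 2 of these settings, and median-ratio scaling gave 1155 lower and 1389 higher in place of 654 and 2931. Genes called in the same direction in both went from 71 to 237 and 18 with those 2 settings. Of the 10 genes, those called for the averaged cisplatin effect went from 1 to 3 with median-ratio scaling, 6 with the Y-linked covariate and 3 without a trend. With each library left out in turn these counts ranged from 2551 to 5781, 43 to 129, 1539 to 3830, 36 to 66 and 1 to 4. Gas5 was called in all 19 alternatives (adjusted p 8.98e-05 to 0.0195). The averaged cisplatin effect reversed its sign, without being called in either case, for Pttg1 (0.10 without FAN1KO saline replicate 3 and 0.25 without FAN1KO cisplatin replicate 1, with a range of −0.26 to 0.25 when libraries were left out), for Cfap126 (0.0115 with a pseudocount of 0.1, 0.0010 with voom and 0.0274 without wild-type cisplatin replicate 2, range −0.18 to 0.0274) and for Elobl (−0.0079 with median-ratio scaling and −0.0134 without wild-type cisplatin replicate 2, range −0.0134 to 0.11). The cause of these changes was not tested.

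The labels number the mice of each group, and a fit with that number as a block gave 61 genes between genotypes under saline and 42 in both comparisons. Same-numbered mice of different groups did not deviate together (mean correlation 0.018 over 18 pairs, from −0.61 to 0.76, against 0.015 over 36 pairs of different numbers), so the numbers were not taken as pairs. Values under about 1 TPM, such as Trim12a in wild-type kidneys, rest on few reads and fix no fold change closely.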
